A study of Saccharomyces cerevisiae with 95 samples.

Results

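The genes described here are the hexokinases and the paired glycolytic isoenzymes of budding yeast, which catalyze the first step and 3 steps of the lower part of glycolysis. They are HXK1 (YFR053C), HXK2 (YGL253W) and GLK1 (YCL040W) at glucose phosphorylation, TDH1 (YJL052W), TDH2 (YJR009C) and TDH3 (YGR192C) at glyceraldehyde-3-phosphate dehydrogenase, ENO1 (YGR254W) and ENO2 (YHR174W) at enolase, and CDC19 (YAL038W) and PYK2 (YOR347C) at pyruvate kinase. They were chosen by name, 10 open reading frames (ORFs) out of 6132 in the table, and all 10 matched the RefSeq annotation of the genome. The 95 arrays carried ORF products and compared a sample (Cy5) with a reference (Cy3), and each value is their log2 ratio, so that a value of 1 is a doubling. In the first experiment, haploid wild type cells (WT BY4741) and haploid cells deleted for ADH1 (BY4741 ADH1::KANMX) were grown to log phase in glycerol and compared with what the labels give as the same strain grown in glucose, on 2 and 3 arrays respectively. ADH1 codes for the alcohol dehydrogenase that makes ethanol during fermentation. In a second experiment, adh1 cells from an overnight glucose culture were moved to 2% glycerol (4 arrays, 0.5 to 4 h) or to fresh glucose (3 arrays, 0.5 to 4 h) and compared with the overnight culture. In the third experiment, cells held at steady state in a chemostat, a continuous culture whose growth is set by one limiting nutrient, were perturbed and compared with a batch culture grown to late log phase in the same limited medium. Glucose-limited cells received 6 mM DTT, a shift to 39 degrees for 5 h, 0.4 M NaCl, 0.6 mM H2O2 or glucose to 0.04% (40 arrays in 5 courses). Histidine-limited cells received 6 mM DTT, a shift to 37 degrees for 5 h, 0.31 M NaCl, 10 µM clotrimazole, a drug against ergosterol synthesis, or histidine to 4 mg/l (43 arrays in 5 courses). The labels give BY4741 for both chemostats, while the methods of the study give a W303-1 strain without BAR1 for the histidine-limited one, so that strain, reference culture and limitation cannot be told apart. The deletion strain is 1 line from a strain collection, and the methods give a histidine-limited medium with ample glucose. The labels of the histidine-limited chemostat are not uniform. The source names of both heat shock arrays before the onset call the chemostat glucose-limited, and the growth protocol of the NaCl course gives the limiting nutrient in percent, as in the glucose-limited courses, and not in mg/l. The titles were followed here, and no other check of the limitation was made.

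Glycolysis converts glucose to pyruvate, and yeast keeps several genes for some of its steps. Hexokinase 2 is the main enzyme in cells fermenting glucose, hexokinase 1 and glucokinase are expressed when glucose is scarce, and hexokinase 2 also takes part in glucose repression. Of the dehydrogenases, TDH3 and TDH2 are the abundant forms and TDH1 is known from cells entering stationary phase. ENO2 and CDC19 are the glucose-induced enolase and pyruvate kinase, ENO1 is the constitutive enolase, and PYK2 is a pyruvate kinase that glucose represses. Glycerol enters the pathway below the hexokinase step, so that cells using it run the upper part in reverse.

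The log-phase arrays held 5071 to 5672 values each, the transfer arrays 5919 to 6013 and the chemostat arrays 6132. The members were measured on every array, except ENO1 on 2 transfer arrays (glycerol, 0.5 and 2 h). The array medians lay between -0.03 and 0.03. Dyes were not swapped, so a dye effect stays in every ratio, and the arrays carried ORF products, so transcripts of close copies such as TDH1, TDH2 and TDH3, ENO1 and ENO2, or HXK1 and HXK2 can hybridize to the same spot; how far this mixed their values was not tested. A ratio gives no absolute level, and members were compared with each other only by their ratios. The ADH1 spot gave log2 ratios of 0.11 and 0.85 in wild type and of 5.60, 5.43 and 5.32 on the log-phase arrays labelled adh1. It gave 0.54, 3.46, 4.82 and 3.53 at 0.5, 1, 2 and 4 h after transfer to glycerol and 0.12, 0.63 and 0.19 at 0.5, 2 and 4 h after transfer to glucose. Such ratios go against a label by which ADH1 is missing from both channels, unless RNA of another gene bound to the spot. The spot of ADH2, a close copy of ADH1, was at 0.02 and 0.55 in wild type, at 5.86, 5.65 and 5.27 on the log-phase arrays labelled adh1 and at -0.25, 3.43, 3.72 and 2.44 after transfer to glycerol. Which RNA gave the ADH1 signal was not tested. Markers of alpha cells were low on the same arrays, although the methods give both strains as a cells. In log phase their means were -4.66 to -4.24 over 4 markers, against -0.07 in wild type over the 3 markers with a value there. Those 3 markers had means of -5.21 to -3.49 over the log-phase adh1 arrays. The 4 alpha markers were at -3.49 to -2.24 at 4 h after transfer to glycerol and at 0.12 to 0.98 at 4 h after transfer to glucose. Whether both channels of these arrays hold the same strain was not tested. In what follows adh1 means the arrays so labelled, and every adh1 ratio and every difference from wild type rests on that label. In the histidine-limited NaCl course the medians of TDH1, TDH2 and TDH3 over 8 arrays were 3.56, 4.22 and 3.00. Over the other 35 histidine-limited arrays they were 0.28, 0.25 and 0.27. The TDH genes were high already before NaCl was added, so several of their results that rest on this course are given with and without it. The replicates of the log-phase arrays carry numbers only, and the spread between them may be technical, so that p-values measure only the spread between these samples. Test results below are from limma with Benjamini-Hochberg adjustment over all ORFs tested, at a threshold of 0.05, and errors are standard errors (SE) of the fit unless named otherwise.

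The log-phase arrays addressed how the isoenzymes respond to the carbon source in cells with and without ADH1. In wild type cells 6 of the 10 members passed the test, 5 higher in glycerol and 1 lower, where 60.7% of 4827 ORFs passed, 27.7% higher and 33% lower. In adh1 cells 7 of 10 passed, 2 higher and 5 lower, where 63.1% passed, 29.1% higher and 34% lower. The share called was thus close to that of all ORFs in both strains. The median over the members was 0.65 in wild type and -0.24 in adh1, beside medians over all ORFs of -0.05 and -0.04.

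Glucose phosphorylation was the step with the highest ratios. GLK1, glucokinase, had log2 ratios of 2.82 and 3.80 in wild type and of 1.80, 1.54 and 1.67 in adh1. All 5 arrays showed more GLK1 RNA in glycerol, and the strains did not overlap. The mean was 3.31 ± 0.21 in wild type (9.93-fold, n = 2, adjusted p = 4.46e-05) and 1.67 ± 0.17 in adh1 (3.18-fold, n = 3, adjusted p = 0.000234).

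HXK1, the hexokinase of cells short of glucose, gave 1.88 and 2.20 in wild type and 0.39, 0.65 and 0.59 in adh1. It was higher in glycerol on all 5 arrays, with wild type far above adh1. The means were 2.04 ± 0.12 (adjusted p = 3.3e-05) and 0.54 ± 0.10 (adjusted p = 0.00249). HXK2, the main hexokinase in glucose, gave 0.76 and 1.27 in wild type and 0.00, 0.08 and 0.72 in adh1. It was higher in glycerol in wild type, by 1.02 ± 0.20 (adjusted p = 0.00397), and did not pass the test in adh1 (0.27 ± 0.16, adjusted p = 0.189). The order GLK1, HXK1, HXK2 was the same in the means of both strains, and on 4 of the 5 arrays HXK1 lay above HXK2.

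The 3 glyceraldehyde-3-phosphate dehydrogenase genes kept a fixed order, with TDH2 highest and TDH3 lowest on every log-phase array. TDH1 gave 1.03 and 0.82 in wild type and -0.17, -0.81 and -0.40 in adh1. TDH2 gave 1.39 and 1.36 in wild type and -0.00, -0.17 and 0.10 in adh1. TDH3, the most abundant form, gave -0.08 and 0.08 in wild type and -1.07, -1.37 and -1.66 in adh1. For each of the 3 genes the strains did not overlap. In wild type TDH1 (0.92 ± 0.16, adjusted p = 0.0021) and TDH2 (1.38 ± 0.10, adjusted p = 6.87e-05) were higher in glycerol and TDH3 was at 0.00 ± 0.14 (adjusted p = 0.996). In adh1 TDH1 was lower (-0.46 ± 0.13, adjusted p = 0.0165), TDH3 was lower (-1.37 ± 0.12, adjusted p = 0.000107) and TDH2 did not pass (-0.02 ± 0.08, adjusted p = 0.821). The call on TDH1 in adh1 was lost without adh1 replicate 2 (-0.29, adjusted p = 0.100) or replicate 3 (-0.49, adjusted p = 0.0596). The distance of TDH2 above TDH3 was 1.37 ± 0.14 (SD, n = 2) in wild type and 1.34 ± 0.37 (SD, n = 3) in adh1, and that of TDH1 below TDH2 was -0.45 ± 0.13 and -0.44 ± 0.24.

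The enolases fell the most of all members in adh1 cells. ENO1 gave -1.08 and -0.07 in wild type and -2.82, -3.81 and -3.36 in adh1. ENO2, the glucose-induced enolase, gave -0.70 and -0.21 in wild type and -3.46, -2.97 and -2.98 in adh1. No adh1 array overlapped a wild type array for either gene. In adh1 ENO1 was lower by 10.1-fold (-3.33 ± 0.23, adjusted p = 4.5e-05) and ENO2 by 8.79-fold (-3.14 ± 0.13, adjusted p = 7.1e-06). In wild type ENO1 did not pass (-0.58 ± 0.28, adjusted p = 0.117), and ENO2 was just past the threshold (-0.45 ± 0.17, adjusted p = 0.0481), a call that was lost when wild type replicate 1 was left out (-0.21, adjusted p = 0.408), as well as without adh1 replicate 2 (adjusted p = 0.0640) or 3 (adjusted p = 0.0739).

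At pyruvate kinase the isoenzymes went apart in adh1 cells. CDC19, the main pyruvate kinase, gave 0.21 and -0.39 in wild type and -1.94, -1.94 and -1.88 in adh1. PYK2 gave 0.15 and 0.62 in wild type and 0.19, 0.22 and -0.30 in adh1. The strains were far apart for CDC19 and overlapped for PYK2. CDC19 was lower in glycerol in adh1 by 3.78-fold (-1.92 ± 0.12, adjusted p = 2.76e-05) and was not called in wild type (-0.09 ± 0.14, adjusted p = 0.615). PYK2 passed in neither strain (0.38 ± 0.17, adjusted p = 0.0848, and 0.04 ± 0.14, adjusted p = 0.835). PYK2 lay above CDC19 by 0.47 ± 0.76 (SD, n = 2) in wild type and by 1.95 ± 0.33 (SD, n = 3) in adh1. Isoenzyme pairs were not tested on these arrays. The exact permutation test used for the chemostat courses cannot give a p below 0.25 with 3 arrays or 0.5 with 2. Without wild type replicate 1 the limma test called CDC19 (-0.39, adjusted p = 0.0313) and PYK2 (0.62, adjusted p = 0.0426) in wild type, and without replicate 2 it called ENO1 (-1.08, adjusted p = 0.0272).

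**Figure D1:**
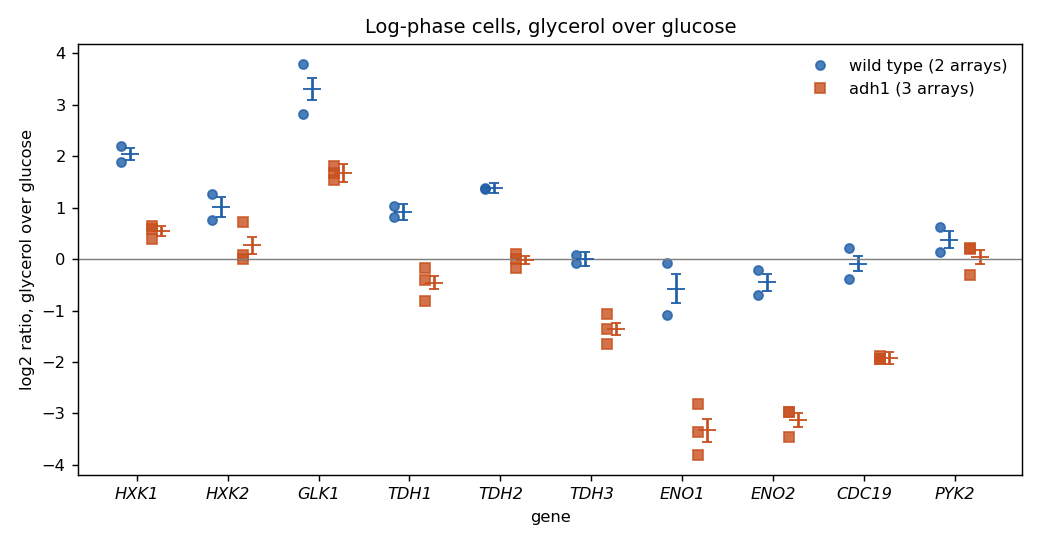
Log2 ratio of glycerol over glucose (vertical axis) for the 10 members (horizontal axis) on each log-phase array, with arrays labelled wild type as circles and arrays labelled adh1 as squares; the dash and bar beside each group are the mean and SE of the limma fit. The 3 adh1 values of ENO1, ENO2 and CDC19 lie between -3.81 and -1.88, below all wild type values of these genes, while GLK1 is above 1 on all 5 arrays.

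The difference between the arrays labelled adh1 and those labelled wild type was tested directly, and 8 of the 10 members passed, all with the lower ratio in adh1, where 25.6% of ORFs passed, 13.8% higher and 11.8% lower. That share is above the one over all ORFs. The differences were -2.75 ± 0.37 for ENO1, -2.68 ± 0.21 for ENO2, -1.83 ± 0.19 for CDC19, -1.64 ± 0.27 for GLK1 and -1.50 ± 0.15 for HXK1. The dehydrogenases shifted by nearly the same amount, with -1.38 ± 0.20 for TDH1, -1.40 ± 0.13 for TDH2 and -1.37 ± 0.18 for TDH3. Adjusted p-values of these 8 ran from 0.00057 (ENO2) to 0.0076 (GLK1). HXK2 (-0.75 ± 0.26, adjusted p = 0.0717) and PYK2 (-0.35 ± 0.21, adjusted p = 0.273) did not pass, although HXK2 passed without adh1 replicate 3 (-0.98, adjusted p = 0.0355). The median over the members was -1.45, beside -0.00 over all ORFs.

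Of 7 other glycolytic enzymes, 7 were lower in glycerol in adh1 (median -1.78, from -2.83 for phosphoglycerate mutase GPM1 to -0.88 for phosphoglucose isomerase PGI1), and all 7 had a lower ratio in adh1 than in wild type (median -1.61). In wild type 2 of them were higher, PGK1 by 1.30 ± 0.14 and PGI1 by 0.59 ± 0.09, and 2 were lower, the phosphofructokinase subunits PFK1 by -0.95 ± 0.12 and PFK2 by -0.38 ± 0.09. Among 3 minor paralogues, the glucokinase relative EMI2 (1.70) and GPM2 (1.63) were higher in glycerol in wild type and GPM3 was lower (-0.44), whereas all 3 were lower in adh1 (-0.80, -0.67 and -0.95). Of 5 regulators of glycolytic genes, the activator TYE7 was higher in wild type (0.66 ± 0.14, adjusted p = 0.00642) and lower in adh1 (-1.78 ± 0.12, adjusted p = 3.74e-05). The activator GCR1 was lower in adh1 (-0.98 ± 0.09, adjusted p = 0.00012), and the glucose repressor MIG1 was higher in both (1.22 and 0.76). Mating genes differed on the same arrays, those of alpha cells as given above. Over 5 markers of a cells the mean ratio was -1.33 to -1.20 in wild type and -2.02 to -1.31 in adh1. These 5 did not shift together. In wild type 4 were called lower in glycerol and AGA2 was at 0.31. The strain difference was called lower for AGA2 (-2.40) and MFA2 (-0.59), higher for BAR1 (0.76) and not for the other 2. The part of the mating genes in the strain difference was not tested.

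The transfer arrays followed cells labelled adh1 over the hours after the change of medium, with 1 array per time point and therefore no test. After transfer to glycerol CDC19 was at -1.30, -2.56, -1.74 and -1.88 at 0.5, 1, 2 and 4 h, and ENO2 at -0.67, -1.91, -1.58 and -0.64. ENO1 was at -1.87 at 1 h and -0.34 at 4 h. The lower-glycolysis genes CDC19 and ENO2 were thus below the overnight culture at every time point. GLK1 was at 1.66, 1.38, 0.44 and 0.54, HXK1 at 1.25, 0.56, 1.37 and 0.15, and PYK2 at 0.97, 0.84, 0.41 and 0.72, above the overnight culture throughout. HXK2 was at 0.95, 0.40, 0.83 and 0.05. TDH3 was at -0.04, -0.28, 1.09 and -0.14, and all 3 TDH genes were highest at 2 h (1.05 for TDH1 and 1.14 for TDH2).

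After transfer to fresh glucose the members did not all move the same way. GLK1 was at -2.40, -0.72 and 0.04 at 0.5, 2 and 4 h, HXK1 at -1.04, -0.81 and 0.94, and PYK2 at -1.34, -0.18 and 0.22. These 3 genes were below the overnight culture at the first 2 time points and above it at 4 h. HXK2 was at 0.60, 1.28 and 1.24, above the overnight culture at all times. TDH1, TDH2, TDH3, ENO1, ENO2 and CDC19 were above the overnight culture at all times and close to each other, between 0.69 and 0.77 at 0.5 h, between 1.02 and 1.22 at 2 h and between 0.91 and 1.28 at 4 h. At 0.5 h these 6 values spanned 0.08, while the SD over all ORFs of that array was 0.75 and 81.7% of ORFs lay below the lowest of the 6. The 6 were grouped after their values were seen, and HXK2, which was left out, lay inside their range at 4 h.

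The chemostats before perturbation gave the ratio of steady state over batch culture, with 1 value per course. In the glucose-limited chemostats 8 of 10 members passed, 2 higher and 6 lower, where 28.7% of 6132 ORFs passed, 13.9% higher and 14.8% lower. In the histidine-limited ones 3 of 10 passed, 2 higher and 1 lower, where 34.7% passed, 18.2% higher and 16.5% lower. The share of members called was above that of all ORFs under glucose limitation and near it under histidine limitation. The member medians were -0.36 and 0.19, beside 0.00 and -0.00 over all ORFs.

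Under glucose limitation HXK1 and HXK2 were above the batch culture, and GLK1, TDH3, ENO1, ENO2, CDC19 and PYK2 below it. In the DTT, heat shock, NaCl, H2O2 and glucose courses, HXK1 was at 0.88, 0.60, 0.99, 0.54 and 0.55 before the onset, a mean of 0.71 ± 0.09 (adjusted p = 0.000146). HXK2 was at 0.72, 0.69, 0.92, 0.41 and 0.05, a mean of 0.56 ± 0.11 (adjusted p = 0.00268). GLK1 was at -0.34, -0.45, -0.05, -0.15 and -0.27, a mean of -0.25 ± 0.07 (adjusted p = 0.0183). HXK1 and HXK2 were thus above the batch culture in all 5 courses and GLK1 below it. The GLK1 call was lost without the DTT (-0.23, adjusted p = 0.0705) or heat shock course (-0.20, adjusted p = 0.0591).

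Of the dehydrogenases, only TDH3 was called under glucose limitation, at -1.20, -1.01, -0.64, -1.10 and -1.05, a mean of -1.0 ± 0.26 (adjusted p = 0.0127). The call was lost when only the last array before each onset was used (adjusted p = 0.0666). The glucose-limited values were the same there, since each of these courses has 1 array before the onset. Only histidine-limited values, which enter the shared spread, changed. With 1 course left out the call was kept (limma, adjusted p from 1.59e-05 to 0.0433). TDH1 was at -0.61, 0.38, 0.41, -0.58 and -0.02 and TDH2 at -0.32, 0.32, 0.03, -0.55 and 0.46, on both sides of 0. ENO1 was at -1.18, -1.18, -0.28, -1.58 and -0.84 (mean -1.01 ± 0.14, adjusted p = 0.00031), and ENO2 between -0.55 and -0.36 (mean -0.46 ± 0.07, adjusted p = 0.000534). CDC19 was at -1.07, -0.63, -0.23, -1.08 and -0.59 (mean -0.72 ± 0.11, adjusted p = 0.000631). PYK2 lay between -0.80 and -0.37 (mean -0.63 ± 0.11, adjusted p = 0.00112). ENO1, ENO2, CDC19 and PYK2 were below the batch culture in every glucose-limited course, with the NaCl course closest to 0 for ENO1, ENO2 and CDC19.

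Under histidine limitation enolase and CDC19 stood at the level of the batch culture. Over the heat shock, NaCl, clotrimazole and histidine courses, ENO1 lay between -0.09 and 0.03, ENO2 between -0.28 and 0.09 and CDC19 between -0.17 and -0.00. PYK2 was below it in all 4, at -0.41, -1.09, -0.36 and -0.58, a mean of -0.61 ± 0.12 (adjusted p = 0.00187). HXK1 (0.26 ± 0.10, adjusted p = 0.0636), HXK2 (0.26 ± 0.12, adjusted p = 0.118) and GLK1 (0.12 ± 0.08, adjusted p = 0.252) did not pass.

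The TDH genes were high in 1 histidine-limited culture. TDH1 was at 0.46, 3.41, 0.27 and 0.65 in the heat shock, NaCl, clotrimazole and histidine courses, TDH2 at 0.13, 3.30, 0.35 and 0.49, and TDH3 at 0.17, 2.45, 0.26 and 0.47. The NaCl course was far above the other 3 for each gene. The means passed for TDH1 (1.20 ± 0.41, adjusted p = 0.0383) and TDH3 (0.84 ± 0.29, adjusted p = 0.0399) and not for TDH2 (1.07 ± 0.40, adjusted p = 0.0579). Without the NaCl course they were 0.46 (adjusted p = 0.107), 0.30 (adjusted p = 0.0702) and 0.32 (adjusted p = 0.199), and none was called. HXK1 was called without that course (0.33, adjusted p = 0.0447) and without the glucose-limited NaCl course (adjusted p = 0.0473), whose arrays enter the shared spread, HXK2 without the glucose course (adjusted p = 0.0442) and TDH2 without the histidine-limited heat shock course (1.38, adjusted p = 0.0370). The TDH3 call was also lost without the glucose-limited heat shock (adjusted p = 0.0538), H2O2 (0.0514) or glucose course (0.0528) or the histidine course (0.0619), and that of TDH1 without the glucose (0.0510) or histidine course (0.0575).

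The limitations were compared directly. Glucose minus histidine limitation passed for 6 of 10 members, where 35% of ORFs passed. HXK1 was higher under glucose limitation (0.45 ± 0.13, adjusted p = 0.0215), where 16.3% of ORFs were higher, and TDH3 (-1.84 ± 0.38, adjusted p = 0.00365), ENO1 (-0.98 ± 0.21, adjusted p = 0.00422), CDC19 (-0.65 ± 0.17, adjusted p = 0.0104), ENO2 (-0.38 ± 0.10, adjusted p = 0.016) and GLK1 (-0.38 ± 0.10, adjusted p = 0.0168) were lower, where 18.7% were. PYK2 differed by -0.02 ± 0.16 (adjusted p = 0.944), HXK2 by 0.30 ± 0.16 (adjusted p = 0.168), TDH1 by -1.28 ± 0.54 (adjusted p = 0.0862) and TDH2 by -1.08 ± 0.54 (adjusted p = 0.137). Without the histidine-limited NaCl course TDH3 still differed by -1.30 and passed, with an adjusted p between 0.000151 and 0.00942 over the 9 courses left out in turn. Without that same NaCl course TDH1 differed by -0.54 and TDH2 by -0.34. Neither passed with any of the 9 courses left out. The HXK1 call was lost without the glucose-limited DTT course (0.41, adjusted p = 0.0532), the histidine-limited NaCl course (0.38, adjusted p = 0.0627) or the histidine course (0.43, adjusted p = 0.0624), and the last one also decided GLK1 (-0.36, adjusted p = 0.0509) and ENO2 (-0.35, adjusted p = 0.0540). HXK2 was called without the glucose course (0.43, adjusted p = 0.0260). Of the courses whose labels conflict, leaving out the heat shock course kept the count of members called at 6, and leaving out the NaCl course gave 5. Over the 9 courses left out in turn, 1540 to 2095 of 6132 ORFs were called.

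**Figure D2:**
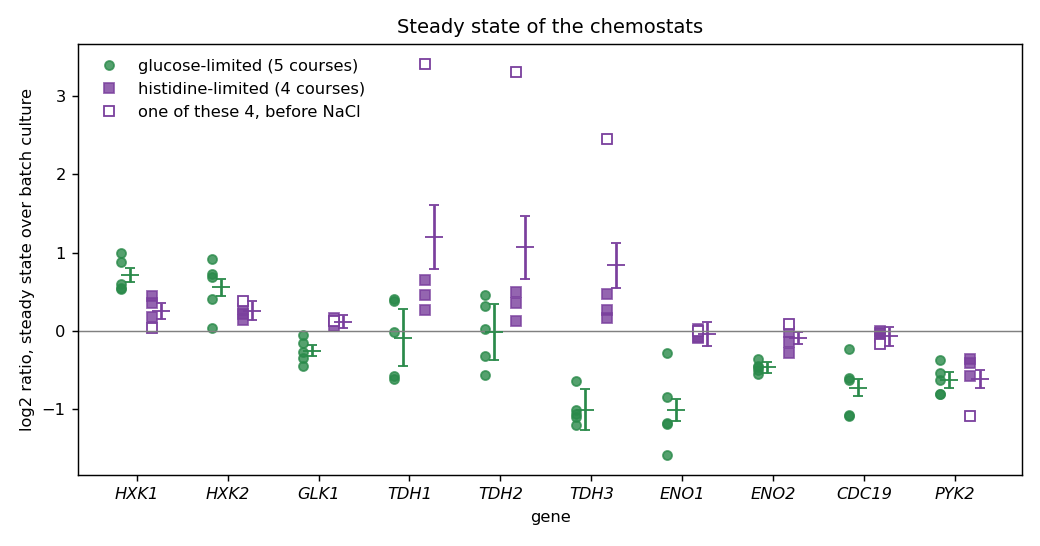
Log2 ratio of steady state over batch culture (vertical axis) for the 10 members (horizontal axis), 1 point per course, with glucose-limited courses as circles and histidine-limited courses as squares; open squares are the culture later given NaCl, and the dash and bar are the mean and SE of the limma fit. The open squares of TDH1, TDH2 and TDH3 lie at 3.41, 3.30 and 2.45, and ENO1 and CDC19 lie below 0 in all 5 glucose-limited courses.

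Isoenzymes of the same step were then compared with each other. GLK1 minus HXK2 was -0.81 ± 0.36 (SD, n = 5) under glucose limitation and -0.14 ± 0.09 (SD, n = 4) under histidine limitation, a difference of -0.67 (exact two-sided permutation test over 9 courses, p = 0.0159, adjusted p = 0.0972 over 7 pairs). PYK2 minus CDC19 was 0.10 ± 0.29 and -0.54 ± 0.28 (p = 0.0317, exact test, adjusted p = 0.0972). TDH2 minus TDH3 was 0.99 ± 0.42 and 0.23 ± 0.42 (p = 0.0476, exact test, adjusted p = 0.0972), and ENO1 minus ENO2 was -0.55 ± 0.42 and 0.05 ± 0.18 (p = 0.0556, exact test, adjusted p = 0.0972). Under histidine limitation TDH2 minus TDH3 was 0.85 in the NaCl culture and between -0.04 and 0.09 in the other courses. None of the 7 pairs passed after adjustment. The smallest p that 5 against 4 courses allow is 0.00794. A pair alone at that p would not pass adjustment over 7 pairs, so the result does not show that the isoenzymes were alike.

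Of the 7 other glycolytic enzymes, 4 were lower under glucose limitation (PGK1 -0.55, GPM1 -0.52, PFK1 -0.45 and PFK2 -0.24) and none was higher by this test (median -0.29). Under histidine limitation PFK1 alone passed, at 1.21 ± 0.12 (adjusted p = 1.87e-05). TYE7 was lower under both (-0.73 and -0.83). Some mating genes moved here too. Over 5 a cell markers, 4 of which were called lower under histidine limitation, the mean was -0.48 to 0.44 on the glucose-limited steady-state arrays and -1.90 to -1.24 on the histidine-limited ones, and over 4 alpha cell markers -0.11 to 0.11 and 0.31 to 0.44. Of these alpha markers only STE3 was called under histidine limitation (1.29 ± 0.13, limma, adjusted p = 1.9e-05). MF(ALPHA)1, MF(ALPHA)2 and SAG1 were at 0.06, 0.19 and -0.05. The spot of BAR1, the gene the methods give as deleted there, was at 0.06 ± 0.18 under histidine limitation. Whether both channels of those arrays hold the same strain was not tested. The part of the mating genes in the difference was not tested either.

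TDH3 lies in a stretch of chromosome VII whose ORFs were high in the histidine-limited cultures. Looking at the neighbours of TDH3 in the annotation, a run of 28 ORFs from CRH1 (YGR189C) to CCH1 (YGR217W) held means over 0.5 at histidine-limited steady state, 2 of them before TDH3 and 25 after it. The run was chosen from these values, so they are a description. The 27 neighbours of TDH3 lay between 1.53 and 3.24 with a median of 2.42 under histidine limitation, and between -0.20 and 0.47 with a median of 0.07 under glucose limitation. TDH3, at 0.84, was the lowest of the run. The ORF next to it is HIP1, the high-affinity histidine permease, which was between 1.02 and 4.53 on all 43 histidine-limited arrays.

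The median over the neighbours ranged over the arrays of a course from 0.49 to 1.29 with DTT (7 arrays), 1.02 to 2.68 with clotrimazole (10 arrays), 2.07 to 2.44 with heat shock (10 arrays), 2.14 to 2.80 with histidine (8 arrays) and 2.66 to 3.35 with NaCl (8 arrays). TDH3 lay at -0.03 to 0.12 with DTT, 0.09 to 0.89 with clotrimazole, 0.14 to 0.65 with heat shock, 0.16 to 1.66 with histidine and 1.41 to 3.49 with NaCl. In the NaCl course TDH1 spanned 1.81 to 4.52 and TDH2 2.14 to 4.76 over 8 arrays, while on the other 35 histidine-limited arrays they spanned -0.12 to 1.32 and 0.03 to 1.42. TDH1 and TDH2 lie on another chromosome, and the 10 nearest ORFs of each had means in the NaCl course of -0.95 to 0.98 (median -0.07) and -0.90 to 0.37 (median -0.15). Gene copy number was not measured, and its part and that of hybridization between TDH copies were not tested.

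**Figure D3:**
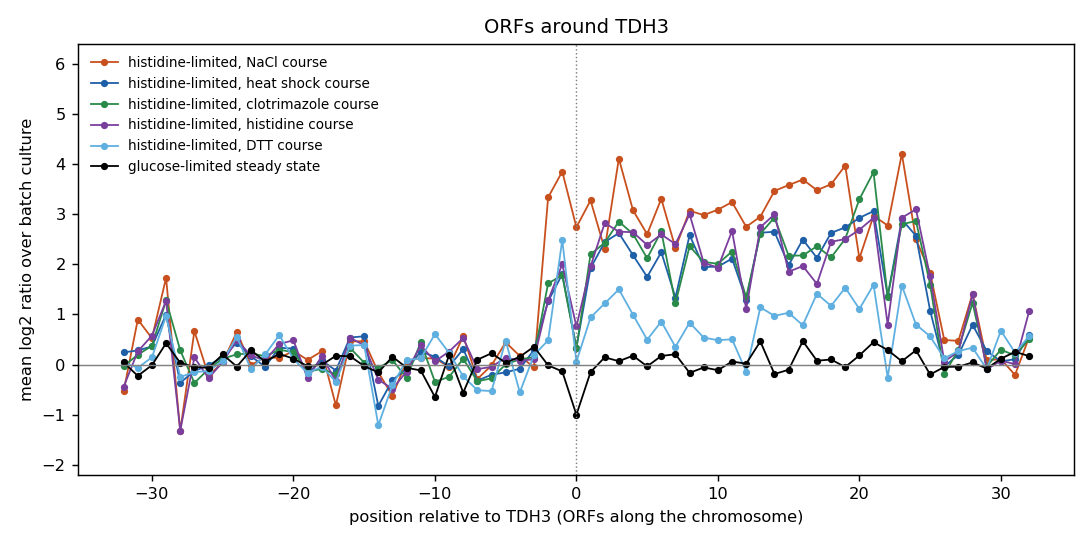
Mean log2 ratio over batch culture (vertical axis) of each ORF around TDH3, by its position in ORFs along the chromosome (horizontal axis, TDH3 at 0), for the 5 histidine-limited courses and the glucose-limited steady state. From 2 ORFs before to 25 after TDH3 the lines of the heat shock, NaCl, clotrimazole and histidine courses lie mostly above the flanks, those of the DTT course less so, with TDH3 below HIP1 and PDX1 in all 5 courses, and over that run the glucose-limited line stays between -0.20 and 0.47 except for TDH3, which drops.

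The 7 stress courses (DTT, heat shock and NaCl under both limitations, and H2O2 under glucose limitation) asked how the isoenzymes change when a steady culture is disturbed. The first array was taken 0.23 to 0.33 h after the onset, and the change is that array minus the steady state of the same course. The histidine-limited DTT course had no array before the onset, and the mean steady state of the other histidine-limited courses stood in. At the first array 1 of 10 members passed, where 14.8% of 6132 ORFs passed, and over the mean of the first 5 h again 1 of 10, where 7.7% passed. Both calls were GLK1 and higher. Of all ORFs 6.47% were higher and 8.37% lower at the first array, and 3.69% and 4.01% over 5 h, so that the number of members called was near the background in both windows.

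The change of GLK1 from steady state was 0.29 (DTT), 2.03 (heat shock), 1.61 (NaCl) and -0.09 (H2O2) under glucose limitation and 1.66 (DTT), 1.92 (heat shock) and 2.18 (NaCl) under histidine limitation. It was higher in 6 of 7 courses, with H2O2 the exception. The mean was 1.37 ± 0.28 (2.59-fold, n = 7, adjusted p = 0.0235), and over the first 5 h 0.81 ± 0.18 (adjusted p = 0.0306). The early call was lost when either heat shock course (adjusted p = 0.0747 without the glucose-limited one and 0.0631 without the other), the histidine-limited DTT course (0.0669) or the histidine-limited NaCl course (0.0688) was left out, while the mean stayed between 1.24 and 1.62. The 5 h call was lost without any one course except the H2O2 course, with adjusted p-values of 0.0524 to 0.0818. Without the histidine-limited DTT course TDH2 was called over 5 h in its place (0.44, adjusted p = 0.0472).

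The change of HXK1 was -0.11, 1.81, -0.46 and -0.26 in the DTT, heat shock, NaCl and H2O2 courses under glucose limitation and 1.14, 1.98 and 2.10 in the DTT, heat shock and NaCl courses under histidine limitation. It was 1.14 or more above its steady state in 4 of the 7 courses, the glucose-limited heat shock and all 3 histidine-limited stresses (mean 0.89 ± 0.35, adjusted p = 0.114). Within the 3 histidine-limited courses alone HXK1 passed (1.74, adjusted p = 0.0168). For HXK2 it was 0.33, 0.41, -1.27 and -0.06, and 0.89, 0.64 and 0.22, in the same order (mean 0.17 ± 0.23, adjusted p = 0.642). The NaCl courses were thus unlike each other, since under glucose limitation GLK1 was up with HXK1 and HXK2 down, and under histidine limitation GLK1 and HXK1 were both up. NaCl was 0.4 M in the former and 0.31 M in the latter.

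The change of GLK1 exceeded that of HXK2 by 1.20 ± 1.07 (SD, n = 7) at the first array (5 of 7 courses, two-sided exact permutation of signs, p = 0.0625, adjusted p = 0.219 over 7 pairs). Over 5 h the excess was 0.94 ± 0.51 in 7 of 7 courses (exact test, the smallest p that 7 courses allow, adjusted p = 0.109), and that of HXK1 over HXK2 was 0.46 ± 0.40 in 6 of 7 courses (p = 0.0313, exact test, adjusted p = 0.109). No pair passed after adjustment in either window. A pair alone at the smallest p that 7 courses allow could not pass adjustment over 7 pairs, so the test could hardly call one.

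**Figure D4:**
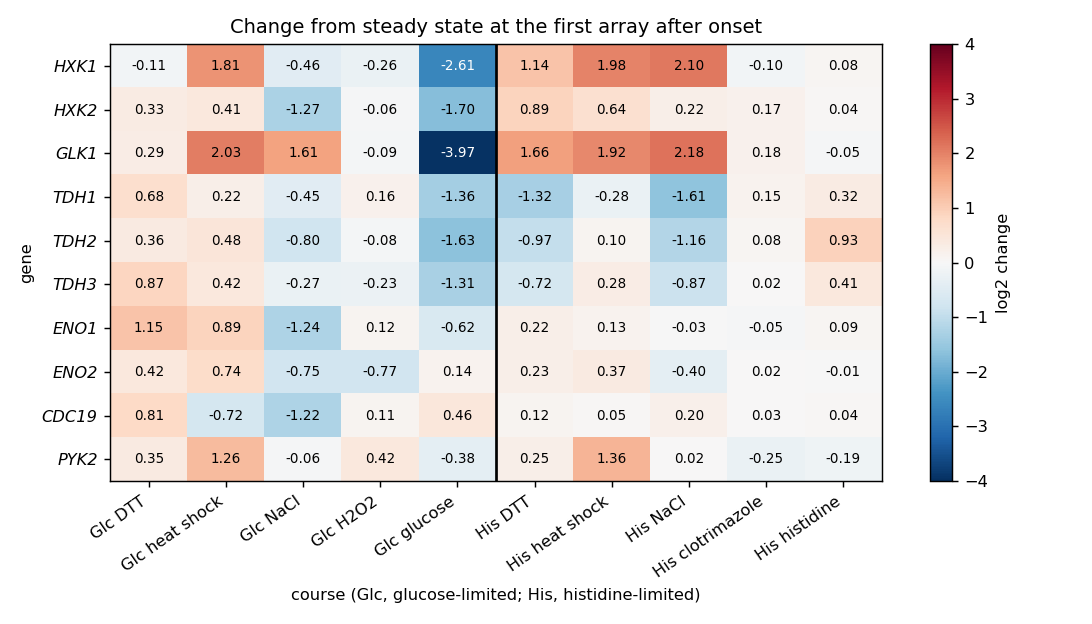
Log2 change from steady state at the first array after the onset for the 10 members (rows) in the 10 chemostat courses (columns, glucose-limited left of the line and histidine-limited right of it), printed in each cell and colored from -4 to 4. GLK1 is at 1.61 or more in 5 of the 7 stress courses and at -3.97 after glucose, and the histidine and clotrimazole columns lie between -0.25 and 0.93.

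The lower enzymes gave no common early change. TDH1, TDH2 and TDH3 had means of -0.37 ± 0.27, -0.30 ± 0.22 and -0.07 ± 0.21 (adjusted p = 0.358, 0.375 and 0.831). Without the histidine-limited NaCl course these means were -0.17, -0.15 and 0.06, and none passed. In the histidine-limited DTT course the TDH genes were at -1.32, -0.97 and -0.72, but these values rest on a steady state that includes the NaCl culture. With the other 3 courses as the baseline, a choice made after seeing the data, they were -0.58, -0.22 and -0.18. In the histidine-limited NaCl course itself they were at -1.61, -1.16 and -0.87, from steady-state arrays that differed between their pair by 2.21, 2.17 and 2.08.

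The change of ENO1 was 1.15, 0.89, -1.24 and 0.12 under glucose limitation (DTT, heat shock, NaCl, H2O2) and that of ENO2 0.42, 0.74, -0.75 and -0.77. Under histidine limitation (DTT, heat shock, NaCl) that of ENO1 was 0.22, 0.13 and -0.03 and that of ENO2 0.23, 0.37 and -0.40. Every glucose-limited change of ENO2, and those of ENO1 other than with H2O2, were larger in size than all 3 histidine-limited ones. Their means over 7 courses were 0.18 ± 0.25 (adjusted p = 0.646) and -0.02 ± 0.20 (adjusted p = 0.951). Over 5 h ENO2 was above its steady state in 7 of 7 courses (0.52 ± 0.17, adjusted p = 0.0877), from 0.02 to 1.31, without passing.

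The change of CDC19 was 0.81, -0.72, -1.22 and 0.11 under glucose limitation and 0.12, 0.05 and 0.20 under histidine limitation (mean -0.09 ± 0.22, adjusted p = 0.795). That of PYK2 was 0.35, 1.26, -0.06 and 0.42, and 0.25, 1.36 and 0.02 (mean 0.51 ± 0.19, adjusted p = 0.0996). PYK2 was highest in both heat shocks, at 0.25 h, while CDC19 went down in one of them and stayed within 0.05 of its steady state in the other. PYK2 minus CDC19 was 0.61 ± 0.89 (SD, n = 7, exact sign-flip permutation p = 0.172, adjusted p = 0.241).

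Later arrays showed slower changes, with 1 array per time point. In the glucose-limited DTT course ENO1, CDC19, ENO2 and GLK1 reached their highest values at 2.22 h (changes of 2.39, 2.12, 1.81 and 1.29), whereas HXK1 and HXK2 did so at 14.25 h (0.98 and 1.43), when GLK1 was at its lowest (-0.93). In the H2O2 course ENO1, CDC19, TDH2 and TDH1 were highest at 1.20 h (1.96, 1.61, 1.43 and 1.16) and HXK2 lowest (-1.37). HXK1 there was highest at 7.73 h (1.48). In both courses the hexokinase genes HXK1 and HXK2 peaked hours after ENO1 and CDC19.

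In the heat shock courses GLK1 and HXK1 came down after the first array. Under glucose limitation GLK1 went from 2.03 at 0.25 h to -0.72 at 5.25 h, just after the shift back, and HXK1 from 1.81 to -0.37 at 1.58 h. HXK1 then was high again after the shift back, with a log2 ratio over batch of 2.21 at 9.63 h. Under histidine limitation GLK1 went from 1.92 at 0.25 h to -1.11 at 5.38 h. Both heat shock courses thus had their lowest GLK1 value on the first array after 5 h.

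In the glucose-limited NaCl course GLK1 went from 1.61 at 0.25 h to -1.06 at 1.75 h, while HXK1 and HXK2 passed through lows of -1.29 at 1.75 h and -1.82 at 0.75 h and ENO2 was 0.96 above its steady state at 6.58 h. In the histidine-limited NaCl course HXK1 was at its highest at 0.23 h and at 0.03 at the last array, 17.15 h. In the clotrimazole course PYK2 was lowest at 9.78 h (-1.21), its lowest change in the 10 courses, while TDH1, TDH2 and TDH3 were highest at 5.03 h (0.78, 0.78 and 0.63) and GLK1 at 14.18 h (0.83). ENO1 and CDC19 moved by no more than -0.17 and -0.12 in that course.

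The 3 stresses that both limitations share were compared between the limitations. Only the DTT dose was the same in both. The heat shock temperature and the NaCl concentration were higher under glucose limitation. For these stresses dose cannot be told apart from limitation. The histidine-limited DTT course had no steady-state array of its own. With the stress as a block, limma called 0 of 6132 ORFs (0%), and 526 had an unadjusted p under 0.05. For the members, glucose minus histidine limitation was -1.33 ± 0.44 for HXK1, -0.61 ± 0.33 for GLK1 (adjusted p = 0.632), 1.22 ± 0.33 for TDH1 (adjusted p = 0.443) and 0.16 ± 0.44 for ENO1 (adjusted p = 0.919). It was -0.76 ± 0.31 for HXK2, 0.69 ± 0.30 for TDH2, 0.77 ± 0.33 for TDH3, 0.07 ± 0.27 for ENO2, -0.50 ± 0.41 for CDC19 and -0.02 ± 0.24 for PYK2, and no member had a lower adjusted p than TDH1. The TDH differences rest in part on the NaCl culture, whose steady state enters the baseline of the histidine-limited DTT and NaCl courses. Without it in the DTT baseline, the DTT change of TDH1 was -0.58 in place of -1.32. A difference in the early response between the limitations was not detectable with 3 courses each.

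The hexokinases had their largest first-array changes of all 10 courses after the limiting glucose was given back. At 0.25 h after glucose the changes from steady state were -3.97 for GLK1, -2.61 for HXK1, -1.70 for HXK2, -1.63 for TDH2, -1.36 for TDH1, -1.31 for TDH3, -0.62 for ENO1, -0.38 for PYK2, 0.14 for ENO2 and 0.46 for CDC19. The ratio of GLK1 over the batch culture was -4.24 at that time, with ENO2 and CDC19 the members above their steady state. At 1.08 and 1.58 h HXK1 and HXK2 had the highest changes of the 10 members. HXK1 was at a log2 ratio of 2.31 and 2.81 over batch at 1.08 and 1.58 h, from -2.06 at 0.25 h and 0.55 at steady state, and HXK2 was 1.77 above its steady state at 1.08 h. ENO2, ENO1, TDH3 and CDC19 had their highest change at 8.08 h (2.59, 1.49, 1.49 and 1.00), and GLK1 was 1.49 above steady state at 8.08 h. At 9.80 h GLK1 was again the lowest member (-1.47) and ENO2 the highest (0.70).

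Histidine given to histidine-limited cells was followed by small changes, the largest in the TDH genes. At 0.17 h TDH2 was at 0.93, TDH3 at 0.41 and TDH1 at 0.32 over steady state, and the other 7 members were between -0.19 and 0.09. TDH3 was highest at 5.08 h (1.19). Over all 7 arrays after histidine ENO1 stayed between -0.01 and 0.16 and CDC19 between -0.09 and 0.08.

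**Figure D5:**
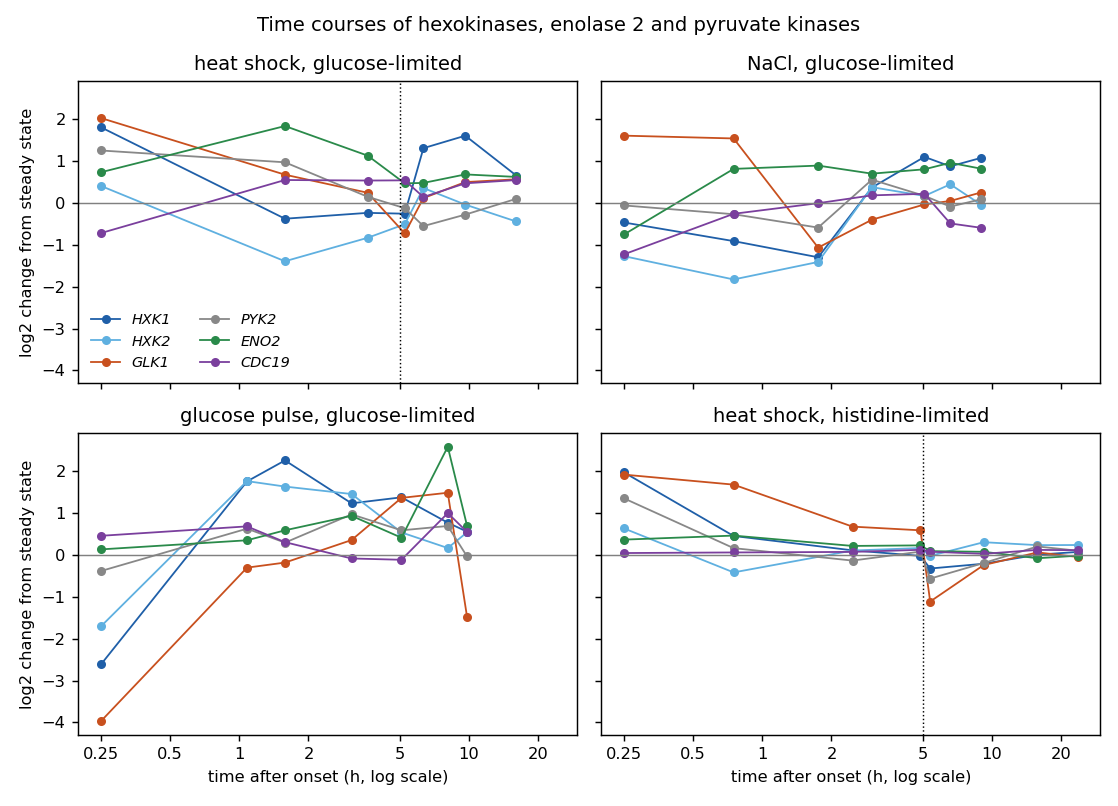
Log2 change from steady state (vertical axis) against the time after onset (horizontal axis, log scale) for HXK1, HXK2, GLK1, ENO2, CDC19 and PYK2 in 4 chemostat courses, 1 array per point; the dotted line marks the end of the 5 h heat shock. GLK1 starts at 2.03 and 1.92 in the heat shocks, 1.61 after NaCl and -3.97 after glucose, while CDC19 and ENO2 in the histidine-limited heat shock stay between -0.07 and 0.47.

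The spread over arrays separated the limitations. Over the 43 histidine-limited arrays the SD was 0.13 for CDC19 and 0.14 for ENO1, both below the 1st percentile of all ORFs (0.383 and 0.546%), where the median ORF had an SD of 0.31. Over the 40 glucose-limited arrays the SD was 0.57 and 0.70, at the 82.8th and 91.4th percentile, beside a median of 0.38. The other glycolytic genes FBA1 and PGK1 were as quiet under histidine limitation (0.13 and 0.14). GLK1 (1.01), HXK1 (0.93) and HXK2 (0.83) were above the 95th percentile under glucose limitation, and GLK1 alone of them was so under histidine limitation (0.70, 95.6%). The 3 TDH genes were above the 99th percentile under histidine limitation with SDs of 1.04 to 1.43. Over the 35 arrays without the NaCl course their SDs were 0.35 (TDH1), 0.37 (TDH2) and 0.36 (TDH3), at the 67.5th, 70.4th and 69.5th percentile, and those of CDC19 and ENO1 were 0.06 and 0.08, still below the 1st percentile. Over arrays of one limitation, which share a reference and whose arrays of a course are not independent, TDH1, TDH2 and TDH3 correlated at 0.81 to 0.84 (Pearson r, 40 glucose-limited arrays) and HXK1 and HXK2 at 0.77. HXK1 and GLK1 correlated at 0.35 over those arrays and at 0.78 over the 43 histidine-limited ones. ENO1 and ENO2 correlated at 0.70 and 0.40, and CDC19 and PYK2 at 0.31 and 0.17. TDH1 with TDH3 correlated at 0.95 under histidine limitation and at 0.45 over the 35 arrays without the NaCl course.

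The ORFs with the most similar pattern over the 83 chemostat arrays, by Pearson r and with no test, differed between the isoenzymes. For GLK1 they were PNC1 (0.921), a nicotinamidase, and MRP8 (0.904). For HXK1 they were the invertase gene SUC2 (0.698) and the hexose transporter gene HXT9 (0.698), and for HXK2 HXT9 (0.683) and HXT10 (0.652), another member of that family, whose genes are alike in sequence. For ENO2 they were SVP26 (0.890) and ERR3 (0.812), an enolase-related gene whose likeness in sequence can share signal on the array. For TDH3 they were PDX1 (0.859) and CIR1 (0.846), for TDH1 ADE3 (0.720) and CRH1 (0.700) and for TDH2 SER2 (0.681) and CRH1 (0.677), all 5 of them ORFs of the run around TDH3. Over the 75 arrays without the histidine-limited NaCl course these r were 0.807 and 0.747 for TDH3, 0.404 and 0.232 for TDH1 and 0.324 and 0.148 for TDH2, and over the 40 glucose-limited arrays 0.446 and -0.03, 0.06 and -0.14, and 0.144 and -0.16. The r of TDH3 over all arrays thus also holds the difference in mean between the limitations. For ENO1 the nearest were COQ6 (0.686), the next ORF on the chromosome, and YDL124W (0.663). CDC19 had PRY1 (0.644) and SEN2 (0.591), and PYK2 had YCT1 (0.50) and KGD1 (0.495), the weakest likeness of the 10.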

How the data were processed

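Arrays were spotted with ORF products, and Cy5- and Cy3-labeled cDNA made by the amino-allyl method was hybridized together. The deposited values are log2 ratios, normalized by the authors, with 1 value for each ORF and array; the labels put the sample in Cy5 and the reference in Cy3. Spot brightness was not used here, so how far spots stood above background is unknown, and precision is limited by how many arrays there are. No genome sequence was used, and gene names and gene order came from RefSeq (10 of 10 members matched by locus tag).

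Log-phase ratios were fitted with limma 3.58.1 in R 4.3.3, with both strains sharing 1 estimate of the spread and only ORFs with a value on all 5 arrays (4827). For the chemostats, each course gave 1 value, either the earliest array following the onset or the mean of arrays up to 5 h, minus the steady state, or the steady state over batch. The spread was moderated by empirical Bayes, and p-values were adjusted over all ORFs by Benjamini-Hochberg at 0.05. Where an arm was left with 1 array, it was assumed to vary like the other strain. Isoenzyme pairs were tested by exact two-sided permutation over courses, with adjustment over 7 pairs. The steps were tested on simulated data with 200 changed ORFs. Python 3.11.15, numpy 2.4.6, pandas 2.3.3, scipy 1.17.1 and matplotlib 3.10.9 were used, with a random seed of 7.

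All 10 members were tested in each comparison. The lists of 7 other glycolytic enzymes, 3 minor paralogues, 5 regulators, 5 a cell and 4 alpha cell markers are given as counts with up to 4 named, and the 2 ORFs with the highest Pearson r are named for each member. The members and lists were chosen with earlier results of these data known. Alternatives were centering each array on its median, other treatment of missing values and exact zeros, robust moderation, a strain fitted alone, a replicate block, other baselines, the second array, 1 limitation alone, the last array before the onset, and each array or course left out. Leaving the NaCl culture out of the histidine-limited DTT baseline was added after seeing the data.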

Additional observations from a re-analysis of the deposited data

Results flagged for a closer look

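In 40 groups of 4, 5 or 7 courses, 1 per member and comparison, the highest or lowest course was compared with the spread of the others by Dixon's criterion, which chance meets in about 1 in 20 groups, and 4 groups met it. At histidine-limited steady state the culture later given NaCl stood apart for TDH1 (3.41, with the other 3 courses at 0.27 to 0.65), TDH2 (3.30, with the others at 0.13 to 0.49) and TDH3 (2.45, with the others at 0.17 to 0.47). For the mean change over the first 5 h, TDH2 in the histidine-limited DTT course was at -0.94 while the other 6 courses were at 0.30 to 0.79. The baseline of that course includes the NaCl culture, and without it the value was -0.19.

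The ratio of glycerol over glucose differed between the arrays labelled adh1 and wild type for 8 members by the limma test of the difference, with -1.50 for HXK1, -1.64 for GLK1, -1.38 for TDH1, -1.40 for TDH2, -1.37 for TDH3, -2.75 for ENO1, -2.68 for ENO2 and -1.83 for CDC19. Steady state over batch differed between glucose and histidine limitation for 6 members, with 0.45 for HXK1, -0.38 for GLK1, -1.84 for TDH3, -0.98 for ENO1, -0.38 for ENO2 and -0.65 for CDC19. The reference culture changed with the limitation, and so did the strain by the methods but not by the labels, so that these cannot be told apart from it.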

How the results depend on the processing

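The counts of ORFs called depended on the alternatives more than the member values. For the strain difference, 1237 ORFs were called, and 625 to 1129 with 1 array left out, while 8 to 9 members were. For the first array of the 7 stress courses, 910 ORFs and 1 member were called. There were 135 ORFs with the batch reference as baseline, 0 with the second array and 0 in glucose-limited courses alone (0 members in both). In histidine-limited courses alone HXK1 was called beside GLK1 (HXK1 at 1.74, adjusted p = 0.0168). Leaving out 1 course gave 0 to 1228 ORFs and 0 to 1 members, with 0 ORFs without either heat shock, the histidine-limited DTT or the histidine-limited NaCl course and 508 without the glucose-limited NaCl course. Where limma called 0, 680 ORFs (glucose-limited courses alone), 1407 (second array) and 1590 to 1720 (1 course left out) had an unadjusted p under 0.05. Over the first 5 h, 472 ORFs and 1 member were called, against 200 ORFs with the batch reference, 0 in glucose-limited (1269 at an unadjusted p under 0.05) and 11 in histidine-limited courses alone (0 members in both), and 81 to 324 ORFs and 0 to 1 members with 1 course left out, fewest without the glucose-limited heat shock. With the batch reference GLK1 was not called at the first array (1.27, adjusted p = 0.0566) or over 5 h (0.71, adjusted p = 0.0919), and HXK1 was (1.41, adjusted p = 0.0432, and 0.86, adjusted p = 0.00646). At histidine-limited steady state 3 members and 2129 ORFs were called. With 1 course left out these were 1 to 4 members and 1488 to 2200 ORFs. Under robust moderation TDH1 (adjusted p = 0.0656) and TDH3 (adjusted p = 0.0585) were not called. For the difference between limitations at steady state 6 members and 2145 ORFs were called. With 1 course left out these were 3 to 7 members, the fewest without the histidine course, and 1540 to 2095 ORFs. The comparison of early responses between limitations called 0 ORFs, and 97 with the batch reference. The cause of these changes was not tested, except that fewer courses or arrays enter where some are left out.

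No called member changed sign under these alternatives, and the direction of values that were not called was not compared. Member values kept their side of the threshold in 92 of 100 cases in wild type, 98 of 100 in adh1, 98 of 100 for their difference, 141 of 150 for the first array, 129 of 140 over 5 h, 117 of 120 and 103 of 120 at glucose- and histidine-limited steady state, and 114 of 120 for their difference. Isoenzyme pairs did so in all 98, 91 and 77 cases, which says little, since few of these cases could pass. With the 4 or 3 stress courses of 1 limitation the smallest p of the exact test is 0.125 or 0.25, so no pair could pass there. The deviations of arrays with the same replicate number correlated at 0.03. With 2 wild type arrays this is the same value for both numbers, so it cannot decide whether the numbers pair the arrays. With a replicate block, 894 ORFs and 9 members were called for the strain difference, HXK2 joining (-0.98, adjusted p = 0.0220).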

Other observations

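The minor phosphoglycerate mutase gene GPM2, a paralogue of GPM1, was higher at the first array of the 7 stress courses (1.57 ± 0.43, limma, adjusted p = 0.0395). The same held over the first 5 h (1.09 ± 0.27, adjusted p = 0.0406). GPM2 was above its steady state in 5 of 7 courses at the first array (lowest -0.64) and in 6 of 7 over 5 h (lowest -0.35). Its first-array call was lost without either heat shock, the histidine-limited DTT or the histidine-limited NaCl course, where no ORF was called. The 5 h call was lost in glucose-limited courses alone. The glucokinase relative EMI2 was at 1.23 (adjusted p = 0.0571) at the first array and at 0.49 (adjusted p = 0.207) over 5 h, and was not called. GPM2 was the only one of 3 minor paralogues called in each window, where 14.8% and 7.7% of all ORFs were called, beside 0 of 7 other glycolytic enzymes, whose medians were 0.19 and 0.30, and 0 of 5 regulators.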
